A study of Mus musculus with 6 samples.

Results

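LINE and SINE elements are the retrotransposons without long terminal repeats that fill much of the mouse genome, and their RNA was compared here between oocytes with and without KDM1A. The members are the repeat names of the classes LINE and SINE that carry the authors' mark of a tested row, 104 of 158 LINE names and 35 of 37 SINE names, or 139 of the 518 tested and 875 listed repeat names. The Kdm1aZp3 group consisted of 3 libraries of ovulated eggs from females with floxed Kdm1a (also called Lsd1) and Zp3-Cre, a transgene active in growing oocytes. The labels give these females as fl/fl and the paper as fl/Δ, that is, with 1 floxed allele and 1 allele already deleted throughout the body, and these genotypes cannot be told apart here. Eggs of a litter were pooled in each library, and the age of the females is not given in the sources used here. The control oocytes, named wild type in the labels and Kdm1a fl/fl in the methods, were sequenced in an earlier study, so that genotype and study of origin cannot be told apart. The deposited table holds 1 mean per group and no value per library. No SD or test can therefore be computed from the values, the authors' own test columns were not used, and each difference described below is one between 2 group means whose spread between libraries is not known here.

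LINE-1, or L1, elements copy themselves through an RNA that encodes 2 proteins, an RNA-binding protein and a reverse transcriptase with endonuclease activity. In the mouse the names beginning with L1Md stand for the youngest L1 subfamilies, some of whose copies can still move, whereas names such as Lx are older remnants from the ancestry of mice and rats, and L1M names are older still and shared by many mammals. SINE elements are short and encode no protein, and those of rodents, such as B1 and B2, depend on the L1 machinery. B1 elements, placed in the Alu family, derive from the RNA of the signal recognition particle, B2 and ID elements derive from transfer RNAs, and their own promoters are read by RNA polymerase III, although copies inside genes are also transcribed as part of messenger RNA. KDM1A removes methyl groups from lysine 4 of histone H3 and is known from mouse embryonic stem cells as a repressor of some retrotransposons.

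To make the means, the authors aligned the first 50 bases of each read to genes and to repeats, counted hits by repeat name and divided the weight of a read that fitted several names by the square of their number. Subfamilies that are close in sequence therefore share reads, and a name's value is not a level per length, so values are compared between groups and not between names. Ratios below are log2 of the mean in Kdm1aZp3 oocytes over the mean in control oocytes, with 1 added to both, and a name is called higher or lower when the ratio reaches 2-fold. Kdm1a itself, on chromosome 4 of GRCm38 from 136550540 to 136602723, reached an authors' mean of 921 in the controls against 6.37 in Kdm1aZp3 oocytes. All 12 oocyte markers were detected in both groups, 4 of them at least 2-fold higher in Kdm1aZp3 oocytes and 0 lower, against 15.9% and 14% of all tested genes. Their summed means were 59258 and 83978, to which Gdf9 gave 14528 and 30876. Bmp15, with means of 16307 and 10830, Nobox and Figla were the markers with ratios below 0. Of 10 cumulus and granulosa cell markers, 8 stayed under 10 in both means and Foxl2, Amh, Inha and Ptx3 were listed at 0 in both, whereas Cyp19a1 had means of 957 and 4237 and Ptgs2 of 1.30 and 26.1, and the sum over the list was 974 in control and 4273 in Kdm1aZp3 oocytes. The 4 blood marker rows lay between 0 and 1.30. The part of other cells in the repeat values was not tested.

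Most LINE names and nearly all SINE names had similar means in the 2 groups of oocytes. Of 104 LINE names, 17 (16.3%) were at least 2-fold higher in Kdm1aZp3 oocytes and 5 (4.81%) at least 2-fold lower. Of 35 SINE names, 0 were higher and 1 (2.86%) was lower. Over all tested repeats 15.8% were higher and 8.11% lower by the same bound, and over all 11651 tested genes 15.9% were higher and 14% lower, so the share of higher LINE names was close to that of repeats and genes in general. SINE names came closest to equal means, with 32 of 35 within 1.5-fold, against 67 of 104 LINE names.

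**Figure D1:**
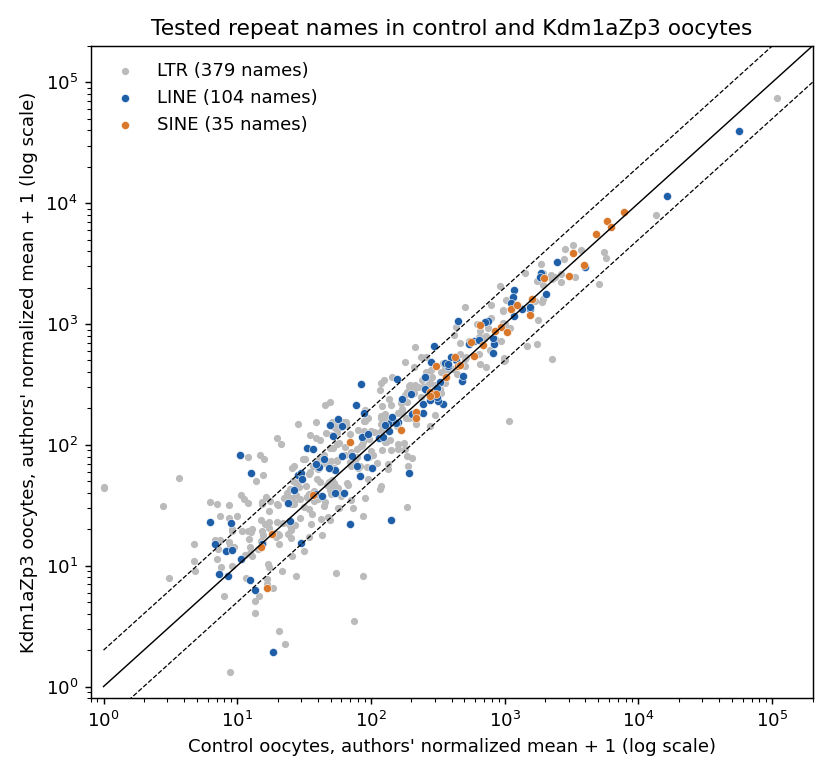
Each point is 1 tested repeat name, with the authors' normalized mean plus 1 in control oocytes on the x axis and in Kdm1aZp3 oocytes on the y axis, both on log scales; the solid line marks equal means and the dashed lines 2-fold differences. SINE names (orange) follow the solid line closely, 34 of 35 of them inside the dashed lines, while LINE names (blue) scatter more widely at low means, as LTR names (grey) do.

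By median, the LINE class lay at 0.21 (quartiles -0.20 and 0.66) and the SINE class at 0.01 (quartiles -0.16 and 0.23) on the log2 scale. The 379 LTR names, the retroviral repeats of the same table, had a median of 0.22, and tested genes one of -0.01. Compared with the median of the LTR names instead of the authors' scaling, the LINE median became -0.0088 and the SINE median -0.20, so that the small positive shift was shared by the classes LINE and LTR. Whether these medians differ beyond the error of the group means was not testable. Spearman's correlation of the 2 group means was 0.940 across the LINE names and 0.991 across the SINE names, a description across names that share reads and libraries.

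**Figure D2:**
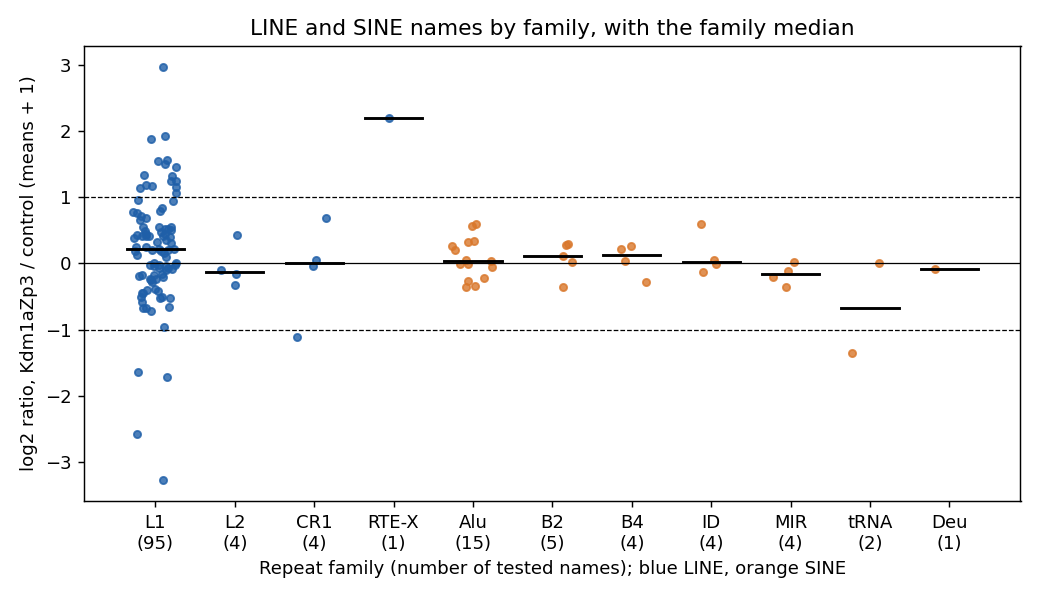
Log2 ratio of the group means (Kdm1aZp3 over control, 1 added to each) for every tested LINE name (blue) and SINE name (orange), by repeat family; black bars are family medians and dashed lines 2-fold differences. The 95 L1 names spread from -3.28 to 2.97 around a median of 0.22, whereas the 28 names of the families Alu, B2, B4 and ID stay between -0.36 and 0.60.

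The L1Md names with high values had smaller means in Kdm1aZp3 than in control oocytes, by similar amounts inside the 2-fold bound. L1Md_T, which stands for the T subfamily of active mouse L1 elements, had authors' means of 56457 in control oocytes and 39616 in Kdm1aZp3 oocytes, a log2 ratio of -0.51. L1Md_F2 had means of 16418 and 11465, a log2 ratio of -0.52. L1Md_F3 had means of 4007 and 2940, a log2 ratio of -0.45. All of these ratios fall short of the 2-fold bound, and they lie close to each other. They share sequence and hence reads, so their likeness is not that of separate measurements.

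The other L1Md names had low values and ratios of the opposite sign. L1Md_F had means of 5.31 and 22.1, which makes it the only tested L1Md name past 2-fold (log2 ratio 1.87, or 1.07 with 10 added in place of 1). L1Md_A, the name of another active subfamily, was not tested and had means of 39.4 and 59.4, and L1Md_Gf, also untested, had means of 0.325 and 1.59. With these untested names included, the median of the L1Md names moved from -0.48 to 0.068, while the summed means of the L1Md names rest on T, F2 and F3. The sum over the 4 tested names was 76887 in control and 54044 in Kdm1aZp3 oocytes, a log2 ratio of -0.51.

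L1 names of the murine and rodent lineages mostly had ratios above 0, the majority of them inside the 2-fold bound. Of 34 such names (Lx, L1_Mus, L1_Mur, L1_Mm, L1_Rod, L1VL and MusHAL1), 27 had a ratio above 0 (as did 321 of all 518 tested repeats), 6 were at least 2-fold higher and 0 were lower by that bound. Their median log2 ratio was 0.41, or 0.19 relative to the LTR names, with quartiles of 0.11 and 0.67 before that centring, and their summed means were 21246 in control and 27030 in Kdm1aZp3 oocytes. The share of higher names, 17.6%, compares with 15.8% over all tested repeats.

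MusHAL1, a mouse member of the HAL1 group of L1 relatives that lack the reverse transcriptase, had the highest ratio of all tested LINE and SINE names, with means of 9.56 and 81.7 (log2 ratio 2.97, or 2.23 with 10 added). Lx4B followed among the names of this group, with means of 82.7 and 318 and a log2 ratio of 1.93, while its neighbour in name Lx4A had means of 1173 and 1174. L1VL2 had means of 48.2 and 144 (log2 ratio 1.56), whereas L1VL1 and L1VL4 had ratios of 0.09 and -0.42. The L1VL names and this pair of Lx4 names thus lay far apart despite their shared prefixes. Of the L1_Mus and L1_Mur names, a set chosen after its values were seen, 7 of 7 had ratios above 0, against 321 of 518 tested repeats, with a median of 0.78. L1_Mur2 had means of 446 and 1063, or 2.38-fold higher in Kdm1aZp3 oocytes. L1_Mus1 had means of 295 and 660 (log2 ratio 1.16), L1_Mus4 of 60.1 and 143 (1.24), and L1_Mus2 of 127 and 144 (0.18).

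Among the 5 names of the group with the highest means, differences were smaller. Lx9 had means of 2460 and 3263 (log2 ratio 0.41), Lx3_Mus of 1881 and 2654 (0.50), and Lx8 of 1841 and 2444 (0.41). Lx7 had means of 2043 and 1775, a ratio of -0.20. L1_Mur3 had means of 1174 and 1925, a ratio of 0.71. The lowest ratio of the group was that of Lx2A1, with means of 81.2 and 54.0 (log2 ratio -0.58). The 21 Lx names had a median of 0.30, 15 of them lay above 0, and 20 of 21 were within 2-fold. Of all 518 tested repeats, 321 lay above 0 and 394 were within 2-fold.

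**Figure D3:**
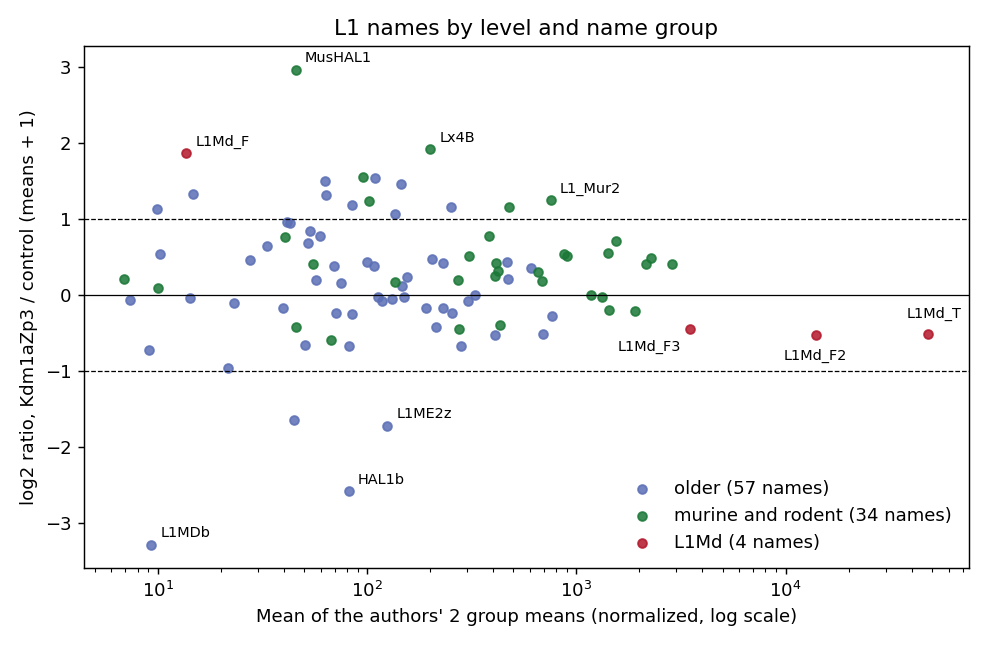
Log2 ratio of the group means (Kdm1aZp3 over control, 1 added to each) against the mean of both group means (log scale) for 95 tested L1 names, coloured by name group; dashed lines mark 2-fold differences. L1Md_T, L1Md_F2 and L1Md_F3 stand at the far right between -0.52 and -0.45, most murine and rodent names lie above 0, and 1 of the names past 2-fold, L1_Mur2, has a mean of at least 500.

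Older L1 names, shared across mammals, lay on both sides of equality. Of 57 tested names (L1M followed by a digit or a capital letter, and HAL1), 9 were at least 2-fold higher, 4 at least 2-fold lower and 44 within the bound, around a median log2 ratio of 0.13, which turned to -0.090 when ratios were centred on the LTR names. The shares past 2-fold, 15.8% higher and 7.02% lower, were close to those over all tested repeats, 15.8% and 8.11%. Their summed means were 8592 in control and 8868 in Kdm1aZp3 oocytes, a log2 ratio of 0.05. All 4 L1 names that were at least 2-fold lower belong to this group. L1MD names with a capital D are part of it and are not L1Md elements.

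The lowest ratio among names with a mean of at least 50 was that of HAL1b, at 140 in control and 22.7 in Kdm1aZp3 oocytes (log2 ratio -2.57). HAL1, its parent name, had means of 141 and 154. L1ME2z had means of 192 and 57.9 (log2 ratio -1.71) and L1ME3A of 68.2 and 21.2 (-1.64), whereas L1ME3 had means of 36.0 and 91.3 (1.32) and L1MEg of 55.5 and 163 (1.54). L1ME names thus included members at both ends, with 2 of 14 higher and 2 of 14 lower, against 15.8% and 8.11% of all tested repeats. L1MDb, named after its values were seen, had means of 17.7 and 0.926 (log2 ratio -3.28), and L1MD1 means of 32.4 and 93.8 (1.51). L1MA5 had means of 76.6 and 213, a ratio of 1.46. The remaining named members at the low end, L1MD2, L1MCa, HAL1ME and L1ME1, had ratios between -0.67 and -0.52, inside the 2-fold bound.

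The 5 older names with the highest means were all inside the 2-fold bound, with ratios of either sign. L1M2 had means of 833 and 688 (log2 ratio -0.27) and L1MA6 of 817 and 575 (-0.50). L1M4 had means of 535 and 685 (0.36), L1MA4 of 433 and 505 (0.22) and L1MC1 of 395 and 536 (0.44). None of the 9 L1MC names and 2 of the 8 L1MA names reached 2-fold, against 23.9% of all tested repeats.

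LINE families other than L1, all of them ancient and without known active copies in the mouse, had 9 tested names. Of these, 1 was higher and 1 lower, against 15.8% and 8.11% of all tested repeats. L2, the most frequent of these families in mammalian genomes, had 4 names within 1.5-fold. The name L2 had means of 1551 and 1388, L2a of 1115 and 1500, L2b of 822 and 764, and L2c of 311 and 247, with log2 ratios from -0.33 to 0.43. In the CR1 family L3 had means of 158 and 153 and L3b of 37.2 and 38.4, next to CR1_Mam at 12.6 and 5.31 (log2 ratio -1.11) and Plat_L3 at 7.17 and 12.1 (0.68). L4_A_Mam, the tested name of the RTE-X family, had means of 11.8 and 57.7 and the second highest ratio of all members (2.20, or 1.64 with 10 added). The untested RTE-X names L4_B_Mam and L4_C_Mam had log2 ratios of -0.89 and -1.67.

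B1 elements, the Alu family of the mouse, showed no name past 2-fold in either direction, against 23.9% of all tested repeats. The 15 tested names had log2 ratios from -0.36 to 0.60 with a median of 0.03 (-0.19 relative to the LTR names), and their summed means were 10533 in control and 11095 in Kdm1aZp3 oocytes. B1_Mus1 had means of 1539 and 1196 (log2 ratio -0.36), B1_Mur4 of 1034 and 856 (-0.27), and B1_Mur1 of 943 and 940 (0.00). PB1D10 had means of 1243 and 1430 (0.20) and B1F of 1110 and 1337 (0.27). The 7 names beginning with B1_M, the murine subfamilies, had a median of 0.00, the 3 B1F names one of 0.27 and the 5 names of PB1, the older proto-B1 elements, one of 0.20.

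The 5 B2 names were likewise within 2-fold, with a family median of 0.12 that turned to -0.10 relative to the LTR names. B3 had means of 7734 and 8397 (log2 ratio 0.12), B3A of 5820 and 7088 (0.28), and B2_Mm2 of 1957 and 2391 (0.29). B2_Mm1a had means of 3939 and 3079, a ratio of -0.36, and B2_Mm1t of 1590 and 1617, a ratio of 0.02. The ratios of B2_Mm1a and B2_Mm1t thus lay below those of the other 3 names. In the B4 family RSINE1 had means of 6216 and 6380 (0.04), B4A of 4799 and 5560 (0.21), ID_B1 of 3214 and 3841 (0.26) and B4 of 3021 and 2475 (-0.29).

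ID elements, whose founder in rodents is the gene of BC1 RNA, had 4 tested names. ID4_ had means of 462 and 459, ID4 of 277 and 254, and ID2 of 35.9 and 37.2, with log2 ratios from -0.13 to 0.05. The name ID had means of 68.1 and 104, which at a log2 ratio of 0.60 was the highest ratio of any SINE name. Of the SINE families that predate the rodents, MIR had 4 tested names, all within 2-fold. MIRb had means of 590 and 542, MIR of 360 and 363, MIR3 of 216 and 188, and MIRc of 214 and 167 (log2 ratios from -0.35 to 0.01). AmnSINE1, of the Deu family, had means of 14.1 and 13.2. LFSINE_Vert had means of 17.1 and 17.2, and MamSINE1, at 15.8 and 5.58, was the SINE name past 2-fold (log2 ratio -1.35, and -0.73 with 10 added).

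Summed over names, LINE means came to 110751 in control and 94108 in Kdm1aZp3 oocytes, a log2 ratio of -0.23, although the median LINE name had a positive ratio. L1Md_T, L1Md_F2 and L1Md_F3 made up 69.4% of the LINE sum in control and 57.4% in Kdm1aZp3 oocytes. Without them, a choice made after the values were seen, the sum of the other 101 LINE names was 33869 in control and 40086 in Kdm1aZp3 oocytes, a log2 ratio of 0.24. SINE means summed to 51094 and 54074, a log2 ratio of 0.08. LTR means summed to 242854 in control and 206396 in Kdm1aZp3 oocytes, a log2 ratio of -0.23 like that of LINE. Centred instead on the median ratio of the LTR names, the ratio of sums was -0.45 for LINE and turned to -0.14 for SINE. That median is taken over names and is not a ratio of sums. Of the sum over all tested repeats, LINE names took 27.4% in control and 26.5% in Kdm1aZp3 oocytes, and SINE names 12.6% and 15.3%.

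**Figure D4:**
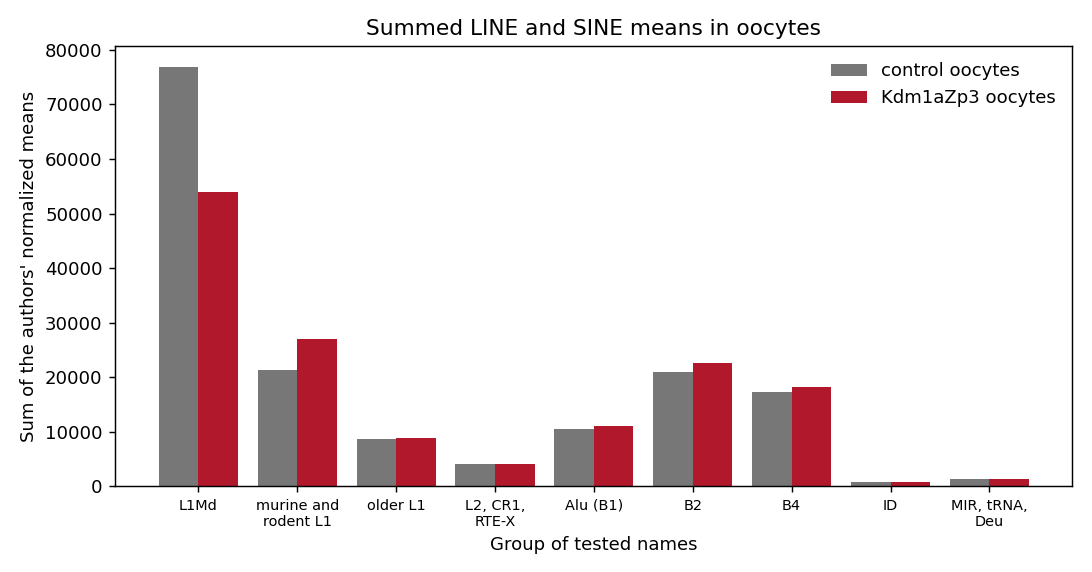
Sum of the authors' normalized means over the tested names of each group, in control (grey) and Kdm1aZp3 (red) oocytes; the bars have no error because the table gives 1 mean per group. The L1Md bars stand at 76887 and 54044, the murine and rodent L1 bars stand at 21246 and 27030, and the B2 bars at 21041 and 22572.

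The share of LINE names past 2-fold was lower at higher means, as it was for LTR names and genes. With the mean of both groups under 50, a bound chosen after the values were seen, 8 of 25 LINE names (32.0%) were past 2-fold in either direction, between 50 and 500 it was 13 of 56 (23.2%), and from 500 it was 1 of 23 (4.35%), namely L1_Mur2. Tested genes gave 44.7%, 31.2% and 12.2% in the same ranges, and LTR names 32.2%, 26.1% and 14.5%. Of SINE names with a mean of at least 50, 0 of 31 were past 2-fold. The median size of the SINE ratios, by contrast, was 0.069 under 50, 0.21 between 50 and 500 and 0.26 from 500, on the log2 scale. The part of the mean level in the LINE calls was not tested.

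The paper states the authors' minimum for raw counts, which are not given here, and tested and untested names overlapped in their normalized means. Why a name such as L1Md_A was left untested cannot be told from these means. The tested names with the lowest values were L1_Mm, HAL1_SS and L1VL1, whose higher means were 7.51, 7.54 and 10.3. The untested names with the highest values were L1Md_A at 59.4, L1ME3D at 36.3 and L1MEj at 17.2. Of 56 untested names, 54 were LINE names and 35 of these older L1 names, and 54 of 56 had means under 20 in both groups. The part of the LINE class that could be compared is thus complete for murine and rodent L1 names (34 of 34) and holds 57 of 92 older L1 names and 4 of 6 L1Md names.

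Genes listed for links to LINE and SINE elements were at least 2-fold lower in a share near that of all tested genes. Of 66 tested genes on a list of 80, 12 (18.2%, Kdm1a among them) were at least 2-fold lower and 1 (1.52%) was at least 2-fold higher, against 14% and 15.9% of all tested genes. Among genes of DNA and histone methylation, Trim28, the co-repressor that recruits histone H3 lysine 9 methylation to retrotransposons, on chromosome 7 from 12999114 to 13031035, had means of 847 and 391 (log2 ratio -1.11). Morc2a, which acts with the HUSH silencing complex and lies on chromosome 11 from 3649191 to 3690477, had means of 547 and 225 (-1.28), and Daxx, a histone H3.3 chaperone on chromosome 17 from 33909414 to 33915590, of 250 and 106 (-1.22). Setdb1, the methyltransferase that works with TRIM28, had means of 4112 and 2715 (-0.60), and Dnmt1, the maintenance DNA methyltransferase, of 77539 and 132839 (0.78), both inside the bound. The paper describes Trim28 and Dnmt1 as unaffected by the loss of KDM1A until after fertilization. The ratios given here compare 2 group means without a test and cannot decide that point.

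Of 9 tested genes that act on L1 RNA or its DNA copy, 4 were lower and 1 higher, against 14% and 15.9% of all tested genes. Upf1, an RNA helicase of RNA decay that binds L1 particles in human cells (chromosome 8, 70331525 to 70353278), had means of 1290 and 630 (log2 ratio -1.03), and Rnaseh2a, the catalytic subunit of RNase H2 (chromosome 8, 84956610 to 84969767), had means of 68.7 and 5.02 (-3.53). The other calls, Mov10, Zc3hav1 and Rnaseh2c, had means under 50 in both groups and were named after their values were seen. Of all tested genes with a mean of both groups under 50, a range that also holds Rnaseh2a, 44.7% were past 2-fold. Of 12 tested small RNA genes, 1 was lower and 0 higher, against 14% and 15.9% of all tested genes. The lower one was the piRNA methyltransferase gene Henmt1 (chromosome 3, 108939873 to 108960774), with means of 267 and 58.5 (-2.17). Dicer1, which cuts the small interfering RNAs of the mouse oocyte, had means of 11099 and 8988 (-0.30).

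RNA polymerase III, which reads the promoters of SINE elements, had 18 tested genes, of which 3 were lower and 0 higher, against 14% and 15.9% of all tested genes. Brf1, a subunit of its initiation factor TFIIIB (chromosome 12, 112960085 to 113000704), had means of 630 and 271 (log2 ratio -1.21), Polr3g, a subunit of the enzyme (chromosome 13, 81673843 to 81711013), of 74.8 and 14.5 (-2.29), and Polr3e, another subunit (chromosome 7, 120917744 to 120947432), of 52.3 and 23.6 (-1.12). Polr3g and Polr3e had a mean of both groups under 50, where 44.7% of all tested genes were past 2-fold. The median of the 18 genes was -0.04. The 6 genes of the signal recognition particle, of which Srp9 and Srp14 encode the proteins that bind the Alu-like part of its RNA, lay between -0.44 and 0.67. Of these, 0 were past 2-fold, against 29.8% of all tested genes. L1td1, a gene derived from the first L1 reading frame, had means of 5.15 and 9.20 and was not tested.

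**Figure D5:**
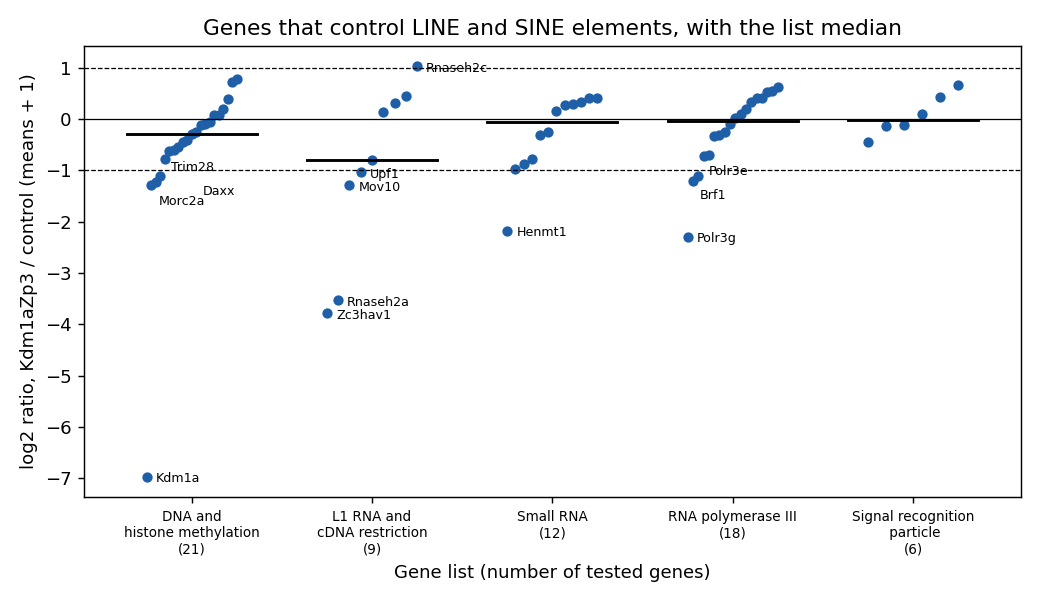
Log2 ratio of the group means (Kdm1aZp3 over control, 1 added to each) for 66 tested genes listed for links to LINE and SINE elements, by gene list. Black bars are list medians, dashed lines 2-fold differences, and genes past the bound are named. Kdm1a, the deleted gene, is at -6.97, and 11 other genes lie below -1 against 1 above 1. With Kdm1a, 18.2% of the listed genes were lower and 1.52% higher, against 14% and 15.9% of all tested genes.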

How the data were processed

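RNA-seq group means of Kdm1aZp3 oocytes (3 libraries) and of control oocytes from an earlier study were used. The deposited values are scores: the authors cut reads to 50 bp, required a mean base quality of at least 15, aligned them with BBMap (95% identity, up to 1 indel and 2000 equally good alignments) to mm10 genes and RepeatMasker repeats, median normalized the weighted hits in R and averaged each group. By the paper's account, names under 10 raw counts in every condition were left untested, and the authors' flag for tested rows selected the members. The authors' own fold changes, p-values and adjusted p-values stand in the same tables and were not used, nor were the tables with 2C embryos, which hold no LINE or SINE row. The number of unused per-library columns was 0, and library depth is unknown. Cufflinks and DESeq appear too in the processing notes of the submitters without a version.

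Log2 ratios were computed with a pseudocount of 1 (Python 3.11.15, numpy 2.4.6, pandas 2.3.3), with medians, quartiles, sums and counts past 2-fold, and the functions were tested on simulated data. Members, lists and groupings were chosen with earlier results of these data known. The naming rule took all tested members of families with at most 5 of them, all L1Md names, the 5 highest means of Alu, of murine and rodent L1 and of older L1, the 8 highest and 8 lowest ratios with a mean of at least 50, the 3 lowest tested and 3 highest untested names, and control genes past 2-fold with a mean of at least 50. Other names were chosen after their values were seen. Gene positions are from GENCODE M21 (GRCm38). Alternatives were other pseudocounts, bounds, minimum means, centrings and groupings.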

Additional observations from a re-analysis of the deposited data

How the results depend on the processing

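No paired analysis was possible because the table holds 1 mean per group, and for the same reason no library could be left out. A count was taken as unmoved within 1.5-fold and a median or sum within 0.1 on the log2 scale, which held for 111 of 146 alternative values. At a bound of 1.5-fold, 27 LINE names were higher and 10 lower and 2 SINE names higher; at 4-fold, 2 LINE names were higher and 2 lower and 0 SINE names lower. With a minimum mean of 50 in the higher group, 3 LINE and 0 SINE names were lower. With untested names included, 14 LINE names were lower and 2 SINE names higher, the medians were 0.068 for L1Md and 0.72 for Deu, and that of RTE-X reversed to -0.10. With a pseudocount of 10, 0 SINE names were lower and the medians of RTE-X and tRNA were 1.64 and -0.36. Shares over all repeats or genes were not computed at these other settings. Whether the counts there differ from those of other repeats is therefore not known. Centring on tested genes shifted ratios by 0.01. Centring on LTR names lowered every ratio by 0.22, to medians of -0.0088 for LINE, -0.20 for SINE, -0.19 for Alu, -0.10 for B2, -0.093 for B4, -0.22 for CR1, -0.31 for Deu, -0.20 for ID, 0.0023 for L1, -0.35 for L2, -0.38 for MIR, 1.98 for RTE-X, -0.89 for tRNA, -0.70 for L1Md, 0.19 for murine and rodent L1 and -0.090 for older L1, and to ratios of sums of -0.45 for LINE and -0.14 for SINE. The sums of the LTR names themselves had a log2 ratio of -0.23 before centring. Without L1Md_T, L1Md_F2 and L1Md_F3, chosen after seeing the data, the ratio of LINE sums was 0.24. Beyond what these settings construct (fewer names or another zero), the cause was not tested. Library depth is unknown, so no limit from depth can be given.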

Other observations

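The table also lists the chromosomes on which each repeat name has copies. All but 1 of the 139 tested LINE and SINE names were listed on all 19 autosomes, the exception being HAL1_SS with 18, and all 139 were listed on X. On Y, all 34 murine and rodent L1 names and all 4 tested L1Md names were listed, as were 34 of 35 SINE names, but 32 of 57 older L1 names. The LINE names that begin with X and a number, which stand for ancient elements, were all untested and had a mean of at most 2.78 in either group. Pld6, an untested piRNA gene named after its values were seen, had means of 4.19 in control and 62.2 in Kdm1aZp3 oocytes.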
